A study of Homo sapiens with 89 samples.

Results

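The genes of the TGF-beta ligands, the activin subunits, the follistatins and the TGF-beta-induced matrix protein TGFBI were followed through poly(A) RNA sequencing of 2 human neuroblastoma cell lines. The 9 genes, of 57905 in the count tables, were TGFB1, TGFB2, TGFB3, INHBA, INHBB, INHBE, FST, FSTL3 and TGFBI, found by symbol. FST, FSTL3, INHBE, TGFB2 and TGFBI were chosen by their changes in level between groups of these libraries, so those changes are given as a description with no p. The other 4 genes, TGFB1, TGFB3, INHBA and INHBB, were taken as relatives of these and are given with their test.

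IMR-32 cells, in which the MYCN gene is amplified, held a doxycycline-inducible shRNA to EXOSC10, an exonuclease of the nuclear exosome. MYCN belongs to the MYC transcription factors. The depleted group had 3 libraries with the induced shRNA at 1 µg/ml doxycycline, and the control group had 3 libraries without doxycycline. The column names of these controls give EtOH, that is ethanol, the solvent of doxycycline. Per the sample labels, the other libraries came from SHEP cells, a line without MYCN amplification, with MYCN constructs under doxycycline control: 3 libraries were labelled wild type MYCN and 3 were labelled MYCN 3A, a triple mutant whose RNA binding is described as deficient, all with 1 µg/ml doxycycline. A further 3 SHEP libraries were labelled no MYCN and had no doxycycline. The series' design text names only SH-EP cells with a 4-OHT-inducible MYCN, in its account of the DNA-binding assays, so what the SHEP RNA libraries are rests on the sample labels. In each comparison with a group that lacked doxycycline, the drug and the shRNA or construct cannot be told apart, while the libraries labelled wild type MYCN and MYCN 3A both had it. Whether replicates came from separate cultures is not stated in the labels, so a p measures the spread between these samples, which may be technical.

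Levels are in CPM, that is counts relative to the TMM-scaled total of each library, as mean ± SD over 3 libraries unless single libraries are given, and levels of different genes are compared as CPM per kb of gene length. A change is a log2 fold change, given with its SE. Library totals were 16394148 to 26193478 counts in IMR-32 and 11638859 to 15353505 in SHEP. EXOSC10 was at 49, 46.7 and 46.1 CPM in the depleted IMR-32 libraries, against 74.6, 64 and 67.1 CPM in the controls, and fell by 0.54 on the log2 scale (SE 0.08, adjusted p = 2.27e-08 in edgeR). MYCN averaged 599 ± 5.47 CPM in the depleted IMR-32 libraries and 1100 ± 15.3 CPM in the controls (SD, n = 3 each). In SHEP, MYCN was at 2, 0 and 0 counts in the libraries labelled wild type MYCN, at 10, 0 and 0 in those labelled MYCN 3A and at 4, 0 and 0 in those labelled no MYCN. These counts do not tell the SHEP groups apart and go against the labels of the 2 induced groups, so every SHEP direction below is between libraries labelled with a form of MYCN. Whether reads from the constructs could be counted at the MYCN gene was not tested. Of the markers of an adrenergic neuroblastoma cell, 6 or more of 7 averaged at least 1 CPM in both IMR-32 groups. In each SHEP group 3 of the 7 did, and the list summed to 70 to 87.7 CPM. TH and DBH were at 0 in all 9 SHEP libraries. All 6 mesenchymal markers averaged at least 1 CPM in each SHEP group, summing to between 4950 and 6620 CPM. In both IMR-32 groups 4 of the 6 did, and that list summed to 414 to 507 CPM. Leukocyte, epithelial and endothelial markers summed to at most 1.52 CPM in any library, and Schwann cell markers to 15 to 22.7 CPM in IMR-32, with SOX10 at 0, and to at most 2.60 CPM in SHEP.

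TGF-beta and activin ligands are secreted dimers that bring together type I and type II serine/threonine kinase receptors, which phosphorylate SMAD2 and SMAD3. These join SMAD4 and enter the nucleus, where they regulate genes of the extracellular matrix and of cell growth. The TGF-beta ligands leave the cell in a latent form, bound by their own propeptide and often by a latent TGF-beta binding protein. Follistatin, from FST, and follistatin-like 3, from FSTL3, bind activins outside the cell and keep them from their receptors. INHBA, INHBB and INHBE encode the subunits of activin A, activin B and activin E, and TGFBI encodes a secreted matrix protein that TGF-beta induces in many cell types.

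Sequence just before the RefSeq start was at hand for 8 of the 9 genes (GRCh38.p14), and INHBE had none. The windows shown are the 250 bases before the start of FST, FSTL3, TGFBI and TGFB2, 4 of the 5 genes chosen by their changes, 5′ to 3′ on the gene's strand. Capitals mark a match to CACGTG, the E-box that MYC proteins bind, in TGFB2, and to TGANTCA in FST. TGANTCA is a loose form of the AP-1 site that allows any middle base, which is T in FST. FSTL3 and TGFBI had no match to either in these letters.
FST, chr5:53480379-53480628, plus strand: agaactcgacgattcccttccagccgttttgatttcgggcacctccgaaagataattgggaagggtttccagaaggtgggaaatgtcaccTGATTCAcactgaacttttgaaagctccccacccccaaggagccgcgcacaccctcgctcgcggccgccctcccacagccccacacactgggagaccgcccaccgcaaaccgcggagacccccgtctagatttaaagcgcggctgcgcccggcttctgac
FSTL3, chr19:676142-676391, plus strand: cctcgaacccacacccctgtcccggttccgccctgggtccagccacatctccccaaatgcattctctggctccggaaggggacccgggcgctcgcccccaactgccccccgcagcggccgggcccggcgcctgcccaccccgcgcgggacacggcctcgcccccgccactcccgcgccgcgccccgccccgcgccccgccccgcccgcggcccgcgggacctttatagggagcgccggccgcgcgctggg
TGFBI, chr5:136028738-136028987, plus strand: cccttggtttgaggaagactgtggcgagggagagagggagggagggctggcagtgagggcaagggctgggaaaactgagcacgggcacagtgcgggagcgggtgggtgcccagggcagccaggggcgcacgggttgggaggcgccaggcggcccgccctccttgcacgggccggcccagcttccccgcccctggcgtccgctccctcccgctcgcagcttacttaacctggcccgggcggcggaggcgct
TGFB2, chr1:218345086-218345335, plus strand: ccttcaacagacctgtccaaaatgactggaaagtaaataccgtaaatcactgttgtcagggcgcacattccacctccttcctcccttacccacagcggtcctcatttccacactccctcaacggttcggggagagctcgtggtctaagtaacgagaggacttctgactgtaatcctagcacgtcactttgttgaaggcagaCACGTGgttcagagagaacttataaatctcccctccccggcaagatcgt

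GC content differed widely among these 4 windows, at 80% in FSTL3, 72.8% in TGFBI, 60% in FST and 50.4% in TGFB2. Searched on both strands from 250 bases before to 50 after the start, CACGTG was in 7.26% of 35116 RefSeq windows and TGANTCA in 7.71%. A composite site of ATF4, TGATGNAA, was in 3.62% of the windows and in none of those of the 8 genes. Besides TGFB2, CACGTG was in 1 of the 2 windows of TGFB3. A match is a run of letters and not a measured binding site.

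The order of the genes by level differed between the lines, as the plot of the members by library shows. Per kb of length, TGFB1, the most widely expressed TGF-beta ligand, averaged 30.8 ± 3.31 CPM in depleted and 30.4 ± 2.34 CPM in control IMR-32 libraries. INHBE averaged 19.3 ± 1.33 CPM per kb in the depleted libraries and 87.4 ± 2.84 CPM per kb in the controls, so it stood below TGFB1 with the shRNA and above it without, and the ranges of the 2 genes did not overlap in either group. FSTL3, TGFB3 and TGFB2 followed in the depleted libraries at 2.90, 2.66 and 2.33 CPM per kb, and each overlapped the next. In the control libraries TGFB2 was next after TGFB1 at 6.22 CPM per kb, apart from FSTL3 at 2.78 and TGFB3 at 2.20. FST came after these 3, at 0.760 CPM per kb in the depleted libraries and 0.727 in the controls. INHBA came after it, and INHBB and TGFBI were at or close to 0.

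In SHEP the leading genes were TGFBI, TGFB1 and FSTL3. In the libraries labelled wild type MYCN they averaged 35.3, 48.5 and 30.4 CPM per kb, with TGFB1 first and no overlap between neighbours. In those labelled MYCN 3A, FSTL3 was first at 74.4 CPM per kb, and TGFBI at 61.3 and TGFB1 at 51.6 overlapped each other. TGFBI was first in those labelled no MYCN at 106 CPM per kb, and TGFB1 at 65.3 and FSTL3 at 60.5 overlapped. FST came next, above TGFB2, in the libraries labelled wild type MYCN and MYCN 3A, and below TGFB2 in those labelled no MYCN. INHBA, TGFB3, INHBE and INHBB closed the order in each SHEP group.

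The tables of the lines were scaled separately, so a level in IMR-32 stands beside one in SHEP with no test. TGFBI had 0, 0 and 0 counts in depleted IMR-32 libraries and 0, 0 and 1 in the controls, while its lowest SHEP count was 3666. INHBE was the reverse, with at least 906 counts in IMR-32 and at most 8 in SHEP. INHBE made up 99.4 to 99.8% of the summed INHBA, INHBB and INHBE level per kb in the 6 IMR-32 libraries, and 0 to 8.40% in the 9 SHEP libraries.

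**Figure D1:**
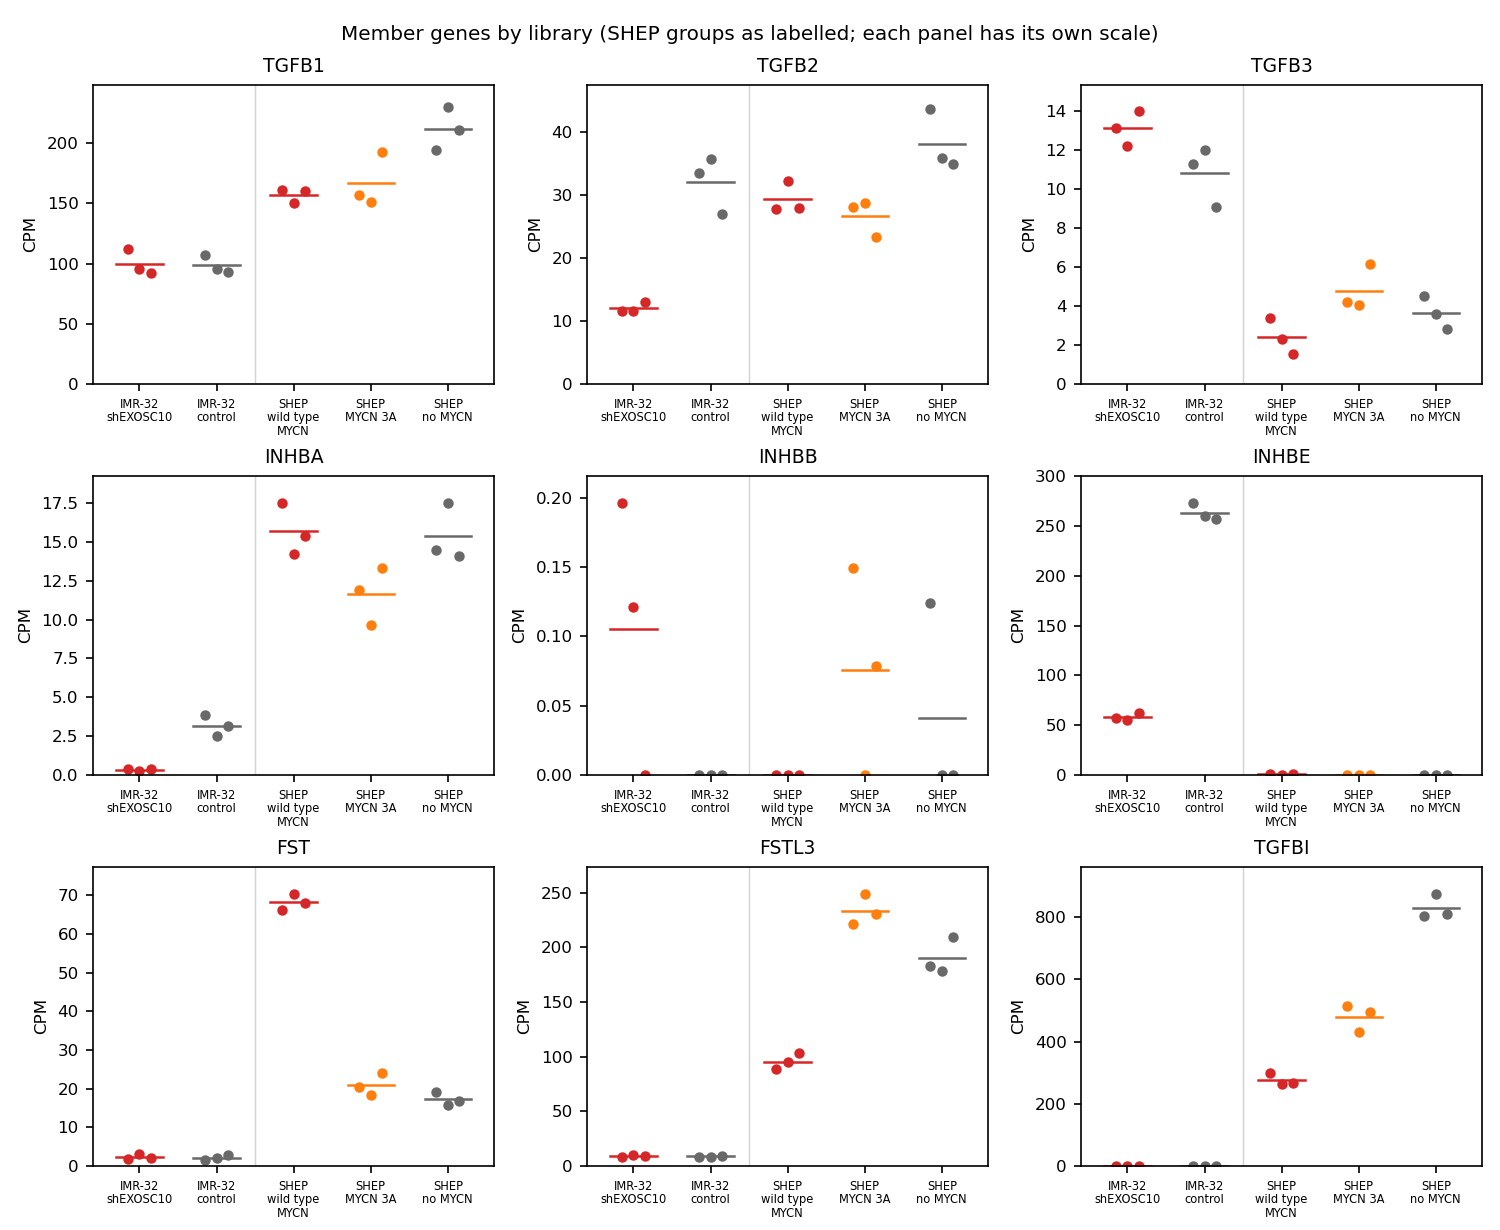
Each panel gives 1 gene in CPM on its own scale from 0, with a point per library and a line at the group mean, for shEXOSC10 and control IMR-32 libraries and for SHEP libraries labelled wild type MYCN, MYCN 3A and no MYCN. INHBE lies at 54.8 to 62.6 CPM in depleted IMR-32 libraries and at 257 to 273 CPM in controls, and FST at 66.2 to 70.3 CPM in SHEP libraries labelled wild type MYCN and at no more than 24 CPM in the others.

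The IMR-32 comparison gives RNA levels that differed between libraries with the induced shRNA to EXOSC10 and controls, with doxycycline in the former only. Of the 9 genes 7 were tested, and 3 of them were lower in depleted libraries with no overlap, 1 was higher with no overlap and 3 overlapped. Over all 17103 tested genes, 19.7% were lower and 18.7% higher with no overlap, and 13.5% were called higher and 13.7% lower by edgeR. The members' counts include genes chosen for such changes, here and in SHEP, so nothing is read from them against these shares. Of the 3 tested genes not chosen for their changes, INHBA was called lower and TGFB1 and TGFB3 were not called.

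INHBE (ENSG00000139269, hg19 chromosome 12, 57846106 to 57853063, plus strand) was at 57.2, 54.8 and 62.6 CPM in depleted libraries, against 273, 260 and 257 CPM in controls. Every depleted library was below every control, and the groups were far apart beside a spread within each of 6.86% and 3.23% (coefficient of variation). The log2 fold change was -2.18 (SE 0.06), a level 0.221 times that of the controls. It ranged from -2.24 to -2.14 over all 11 alternatives, which reuse the same libraries and are no evidence of stability. INHBE is induced with ATF4 during amino acid and endoplasmic reticulum stress. Of 7 genes of that stress response, listed with earlier results of these data known, 6 were called lower, beside 13.7% of all tested genes. The part of that response in the change of INHBE was not tested. ASNS, the asparagine synthetase, averaged 86.8 ± 0.448 CPM in depleted and 281 ± 3.13 CPM in control libraries, a change of -1.70 (SE 0.05, adjusted p = 1.93e-39 in edgeR). CHAC1, which degrades glutathione, changed by -2.61 (SE 0.12) and the transcription factor ATF5 by -2.13 (SE 0.08), with edgeR adjusted p of 2.95e-28 and 8.29e-33. The adrenergic markers summed to 1370 to 1400 CPM in depleted and 2160 to 2300 CPM in control libraries, and their part in these changes was not tested. In bulk RNA, fewer cells that express a gene and less of its RNA per cell cannot be told apart.

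INHBA (ENSG00000122641, hg19 chromosome 7, 41724712 to 41742706, minus strand), the activin A subunit, fell to 8, 4 and 10 counts in depleted libraries, against 80, 51 and 66 counts in controls. That is 0.338 ± 0.0834 CPM in depleted and 3.18 ± 0.694 CPM in control libraries (SD, n = 3 each), so the gene was low throughout and lower still with the shRNA. The change was -3.18 (SE 0.44, adjusted p = 1.24e-08 in edgeR), with adjusted p of 2.6e-11 to 2.79e-06 over the alternatives. INHBB (ENSG00000163083, hg19 chromosome 2, 121103719 to 121109384, plus strand), the activin B subunit, had 4, 2 and 0 counts in depleted libraries and 0 in each control and was not tested.

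TGFB2 (ENSG00000092969, hg19 chromosome 1, 218519577 to 218617961, plus strand) was at 11.5, 11.5 and 13 CPM in depleted libraries, against 33.5, 35.6 and 27 CPM in controls. The groups did not overlap, and the change was -1.41 (SE 0.12), a level 0.377 times that of the controls. TGFB1 (ENSG00000105329, hg19 chromosome 19, 41807492 to 41859816, minus strand) averaged 99.8 ± 10.7 CPM in depleted and 98.4 ± 7.59 CPM in control libraries. Its change was 0.02 (95% interval -0.11 to 0.15, adjusted p = 0.871 in edgeR). TGFB3 (ENSG00000119699, hg19 chromosome 14, 76424442 to 76449334, minus strand) was at 13.1, 12.2 and 14 CPM in depleted libraries and 11.3, 12 and 9.09 CPM in controls. All 3 depleted values lay above the controls, by 0.28 on the log2 scale (SE 0.14), but the change did not pass the test (adjusted p = 0.145 in edgeR). TGFB2 made up 5.66 to 7.47% of the summed TGFB1, TGFB2 and TGFB3 level per kb in depleted libraries and 14.7 to 17.8% in controls, with TGFB1 at 76.0% or more in all 6. Exons of TGFB1 overlap HNRNPUL1 on the other strand, and the strand setting of the IMR-32 table is not stated. Exons of TGFB3 overlap TGFB3-AS1 on the other strand, which had at most 8 counts in IMR-32, where TGFB3 had at least 191.

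The follistatins did not set the IMR-32 groups apart. FST was at 1.81, 3.02 and 1.93 CPM in depleted libraries and 1.65, 2.06 and 2.76 CPM in controls, a change of 0.05 (SE 0.34). FSTL3 was at 8.48, 10.2 and 8.73 CPM in depleted libraries and 8.55, 8.63 and 9 CPM in controls, a change of 0.06 (SE 0.16). Both pairs of ranges overlapped, and the 95% interval of the FST change ran from -0.61 to 0.71 on its low counts.

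**Figure D2:**
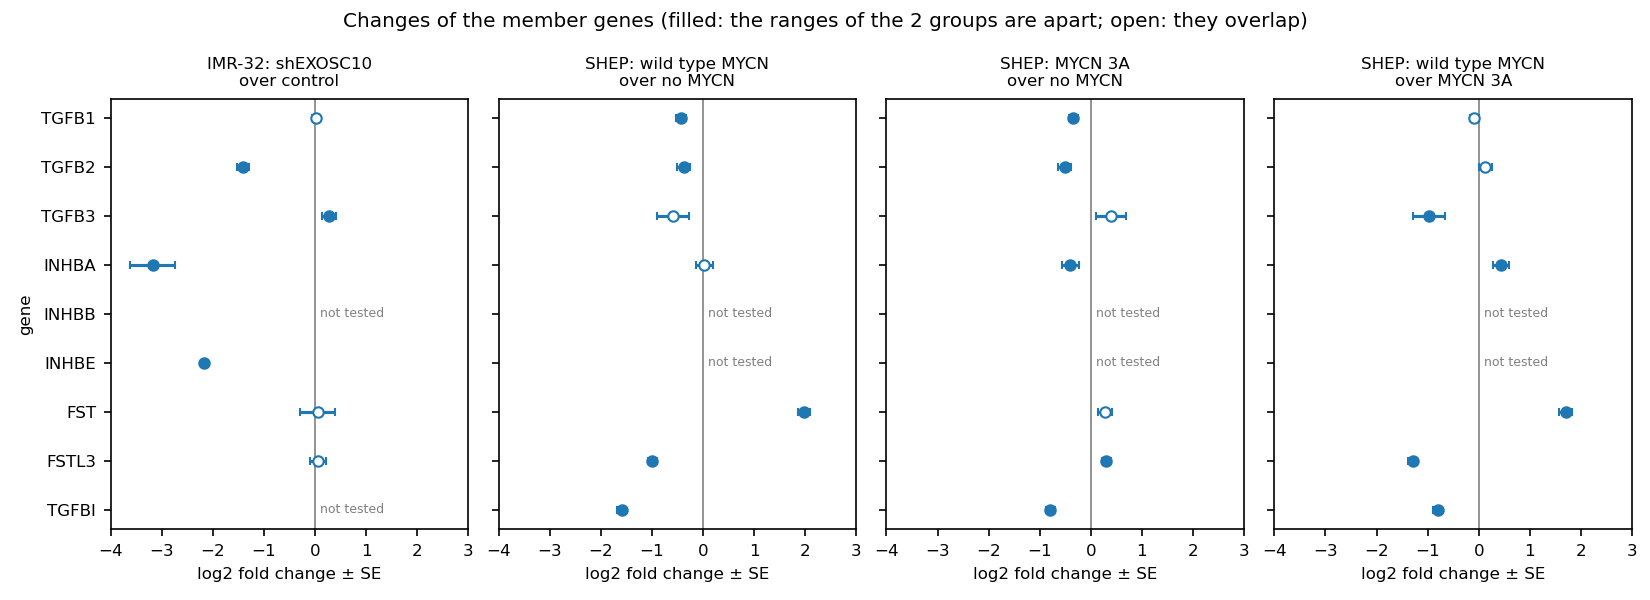
Points are log2 fold changes of the genes tested in each comparison, 7 in IMR-32 and 7 in SHEP with INHBB in neither, and bars their SE, in the 4 comparisons with the group named first on top of each fold; filled points are changes where the ranges of the groups are apart. INHBE at -2.18 and INHBA at -3.18 lie far to the left in IMR-32, and FST at 1.98 and 1.70 to the right in both comparisons of libraries labelled wild type MYCN.

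Among SHEP libraries labelled wild type MYCN and no MYCN, FST was higher and FSTL3, TGFBI, TGFB1 and TGFB2 were lower with no overlap, 5 of 7 tested genes. Over all 14923 genes tested, 18.5% were higher and 19% lower with no overlap, and edgeR called 10.9% higher and 11.3% lower in the libraries labelled wild type MYCN. With library totals in place of TMM factors the counts over all genes were 1163 higher and 2147 lower, against 1634 and 1681 with TMM.

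FST (ENSG00000134363, hg19 chromosome 5, 52776239 to 52782964, plus strand), whose 250 bases before the start are shown above with a match to TGANTCA, was at 66.2, 70.3 and 67.9 CPM in libraries labelled wild type MYCN, against 19, 15.8 and 16.8 CPM in those labelled no MYCN. The 2 groups were apart by more than the whole range within either. The change was 1.98 (SE 0.12), a 3.95-fold higher level, and lay between 1.91 and 2.06 in all 12 alternatives. These reuse the same libraries, so the narrow range is no evidence of stability. FSTL3 (ENSG00000070404, hg19 chromosome 19, 676392 to 683385, plus strand) went the other way, at 89, 94.7 and 103 CPM in libraries labelled wild type MYCN and 183, 178 and 210 CPM in those labelled no MYCN. Its change was -0.99 (SE 0.09), a level 0.503 times that of the libraries labelled no MYCN. The ratio of FSTL3 to FST per kb was 1.27, 1.27 and 1.44 in libraries labelled wild type MYCN and 9.08, 10.6 and 11.8 in those labelled no MYCN. Both genes were chosen for their changes, so the ratio restates those changes and is no further result. Summed per kb, the 2 genes were at 50.6, 53.8 and 55.8 CPM in libraries labelled wild type MYCN. In those labelled no MYCN the sum was higher, at 64.6, 61.8 and 72.4 CPM.

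TGFBI (ENSG00000120708, hg19 chromosome 5, 135364584 to 135399507, plus strand) was at 299, 263 and 268 CPM in libraries labelled wild type MYCN, against 805, 874 and 812 CPM in those labelled no MYCN. No library of one group came near the other, and the change was -1.59 (SE 0.09), a level 0.333 times that of the libraries labelled no MYCN. TGFB1 fell to 161, 150 and 160 CPM in libraries labelled wild type MYCN, against 194, 230 and 211 CPM in those labelled no MYCN, a change of -0.43 (SE 0.09, adjusted p = 0.00174 in edgeR). It kept its call in all 12 alternatives, with adjusted p of 9.25e-05 to 0.025. TGFB2 was at 27.7, 32.2 and 27.9 CPM in libraries labelled wild type MYCN and 43.6, 35.8 and 34.8 CPM in those labelled no MYCN, a change of -0.38 (SE 0.13).

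TGFB3 averaged 2.41 ± 0.929 CPM in libraries labelled wild type MYCN and 3.64 ± 0.860 CPM in those labelled no MYCN (SD, n = 3 each), with overlapping ranges. Its change of -0.59 (SE 0.31) was not called (adjusted p = 0.184 in edgeR), but was called without wild type MYCN replicate 1, where it was -0.92 (adjusted p = 0.0499). INHBA averaged 15.7 ± 1.66 CPM in libraries labelled wild type MYCN and 15.4 ± 1.88 CPM in those labelled no MYCN, a change of 0.03 (95% interval -0.28 to 0.34, adjusted p = 0.918 in edgeR). INHBE had 8, 4 and 8 counts in libraries labelled wild type MYCN, 0, 4 and 0 in those labelled MYCN 3A and 2, 2 and 4 in those labelled no MYCN, and INHBB had at most 2 counts in any SHEP library. Neither was tested in SHEP.

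Among SHEP libraries labelled MYCN 3A and no MYCN, FSTL3 was higher and TGFBI, TGFB2, TGFB1 and INHBA were lower with no overlap. Of all tested genes 19.3% were higher and 22% lower with no overlap, and edgeR called 12.7% higher and 12.8% lower in the libraries labelled MYCN 3A. The split was 1893 higher and 1913 lower with TMM factors, and 1232 and 2928 with library totals. The 3806 calls in all became 2166 without no MYCN replicate 1 and 2508 without no MYCN replicate 2. FST was at 20.4, 18.3 and 24 CPM in libraries labelled MYCN 3A and 19, 15.8 and 16.8 CPM in those labelled no MYCN, and the ranges overlapped, with a change of 0.28 (SE 0.13). FSTL3 was at 221, 249 and 231 CPM in libraries labelled MYCN 3A and 183, 178 and 210 CPM in those labelled no MYCN. The groups were apart by a narrow gap, and the change was 0.30 (SE 0.09), or 0.20 with library totals. The FSTL3 to FST ratio per kb, 10.2, 12.9 and 9.11 in libraries labelled MYCN 3A, overlapped that of the libraries labelled no MYCN.

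TGFBI was at 516, 430 and 494 CPM in libraries labelled MYCN 3A, below all those labelled no MYCN, with a change of -0.79 (SE 0.09). TGFB2 was at 28, 28.7 and 23.3 CPM in libraries labelled MYCN 3A, also below all those labelled no MYCN, with a change of -0.51 (SE 0.13). TGFB1 fell to 157, 151 and 193 CPM in libraries labelled MYCN 3A, against 194, 230 and 211 CPM in those labelled no MYCN. Its highest value all but met the lowest of the other group, and the change was -0.34 (SE 0.09, adjusted p = 0.0104 in edgeR). The call was lost without MYCN 3A replicate 2 (adjusted p = 0.076) and without no MYCN replicate 2 (adjusted p = 0.0812). INHBA was at 11.9, 9.67 and 13.3 CPM in libraries labelled MYCN 3A, below 14.5, 17.5 and 14.1 CPM in those labelled no MYCN. The change of -0.40 (SE 0.16) did not pass the test (adjusted p = 0.0719 in edgeR), but did with library totals, where it was -0.50 (adjusted p = 0.0274). TGFB3 changed by 0.39 (SE 0.29, adjusted p = 0.354 in edgeR) with overlapping ranges.

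The comparison of libraries labelled wild type MYCN with those labelled MYCN 3A, which share doxycycline, gives what differed between the labels. The MYCN counts do not give the amounts of the 2 forms, so amount and mutation cannot be told apart. FST and INHBA were higher and FSTL3, TGFBI and TGFB3 lower in the libraries labelled wild type MYCN with no overlap, while TGFB1 and TGFB2 overlapped. With no overlap, 20.5% of all tested genes were higher and 19.9% lower, and edgeR called 15.8% higher and 14.5% lower. FST was at 66.2 to 70.3 CPM in libraries labelled wild type MYCN and 18.3 to 24 CPM in those labelled MYCN 3A, a change of 1.70 (SE 0.12). FSTL3 was at 89 to 103 CPM in libraries labelled wild type MYCN and 221 to 249 CPM in those labelled MYCN 3A, a change of -1.29 (SE 0.09). The 2 follistatin genes lay on opposite sides, as the plot of the follistatin pair shows. The FSTL3 to FST ratio per kb was at most 1.44 in libraries labelled wild type MYCN and at least 9.11 in those labelled MYCN 3A. Since both genes were chosen for their changes, the ratio again only restates them. Their sum per kb was at most 55.8 CPM in libraries labelled wild type MYCN and at least 77.2 CPM in those labelled MYCN 3A. TGFBI was at 263 to 299 CPM in libraries labelled wild type MYCN and 430 to 516 CPM in those labelled MYCN 3A, a change of -0.80 (SE 0.09). Its levels in libraries labelled MYCN 3A therefore lay between those of the other SHEP groups, apart from both.

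TGFB3 was at 3.40, 2.29 and 1.55 CPM in libraries labelled wild type MYCN, all below 4.18, 4.04 and 6.15 CPM in those labelled MYCN 3A. It was called lower, by -0.98 (SE 0.31, adjusted p = 0.0182 in edgeR), on 22 to 78 counts a library. The call was lost without wild type MYCN replicate 2 (adjusted p = 0.055), wild type MYCN replicate 3 (0.0719) or MYCN 3A replicate 3 (0.116). INHBA was at 17.5, 14.2 and 15.4 CPM in libraries labelled wild type MYCN, above 11.9, 9.67 and 13.3 CPM in those labelled MYCN 3A, and was called higher by a small margin (0.43, SE 0.16, adjusted p = 0.0474 in edgeR). That call was lost in 8 of 12 alternatives (adjusted p = 0.052 to 0.202), among them the removal of any wild type MYCN replicate or of MYCN 3A replicate 1 or 2. TGFB1 changed by -0.09 (95% interval -0.27 to 0.09, adjusted p = 0.506 in edgeR) and TGFB2 by 0.13 (SE 0.13).

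**Figure D3:**
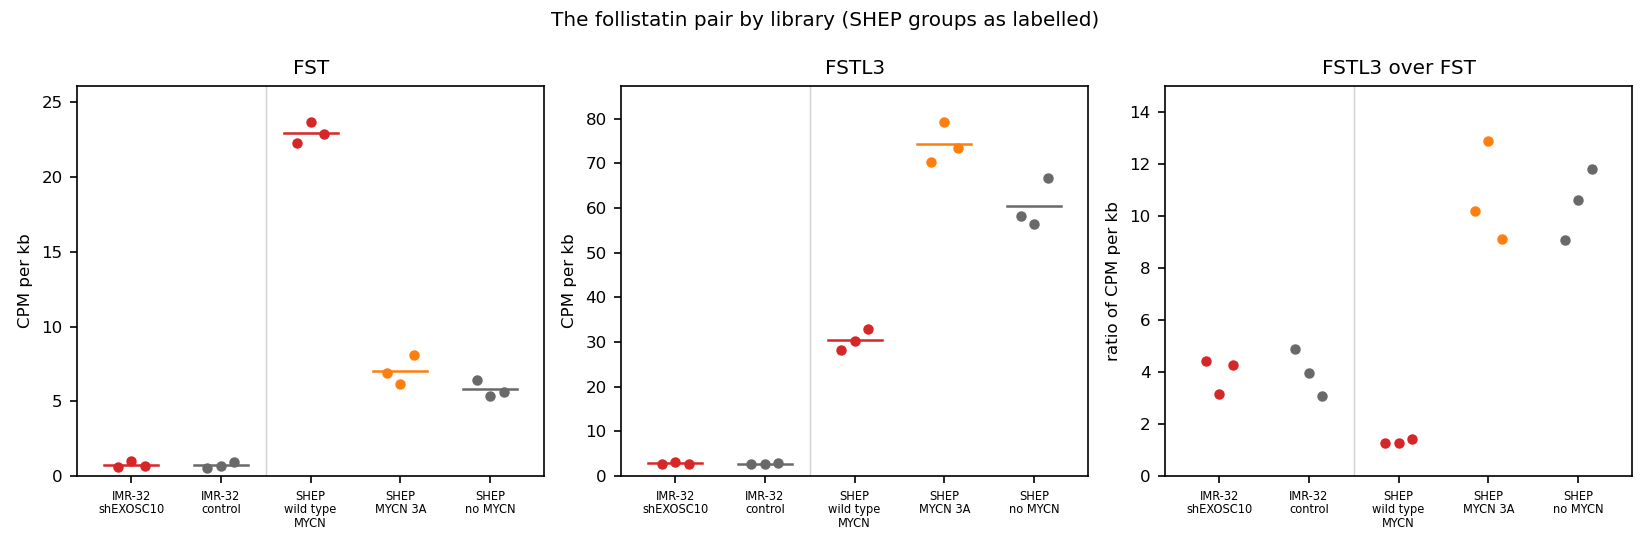
FST and FSTL3 in CPM per kb and their ratio, 1 point per library with a line at the group mean in the first 2 panels, for the 5 groups. The ratio lies at 1.27 to 1.44 in SHEP libraries labelled wild type MYCN and at 9.08 to 12.9 in the other SHEP libraries, and at 3.08 to 4.89 in IMR-32. Both genes were chosen for their changes, so the ratio is a description only.

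Other genes of the pathway were read from lists of 82 genes by role, chosen with earlier results of these data known. On EXOSC10 depletion 21 of 67 tested were called higher and 6 lower, beside 13.5% and 13.7% of all tested genes, with a median change of 0.14, against 0 over all genes. LTBP3, a latent TGF-beta binding protein, averaged 238 ± 12.9 CPM in depleted and 137 ± 15.4 CPM in control libraries and changed by 0.80 (SE 0.06, adjusted p = 1.54e-18 in edgeR). ITGAV, the integrin subunit that takes part in releasing latent TGF-beta, rose by 0.52 (SE 0.06) and CHRD, the BMP antagonist chordin, by 1.01 (SE 0.12). Of 12 receptors 3 were called higher and 1 lower: TGFBR1, the type I receptor of TGF-beta, rose by 0.27 (SE 0.06), and ACVR1C, a type I receptor for activins and Nodal, changed by -1.55 (SE 0.39) on 0.910 ± 0.166 CPM in depleted and 2.64 ± 0.354 CPM in control libraries. Of the 8 SMADs, SMAD3 rose by 0.40 (SE 0.09) and SMAD9 fell by 0.41 (SE 0.09), both kept in every alternative, and SMAD5 was called lower but lost its call in 7 of 11. Of 17 tested target genes 6 were called higher and 3 lower. The collagen gene COL3A1 averaged 6.43 ± 0.676 CPM in depleted and 0.902 ± 0.530 CPM in control libraries, COL1A1 314 ± 17.2 CPM in depleted and 199 ± 12.7 CPM in control libraries, and TPM1, a tropomyosin, 131 ± 6.25 CPM in depleted and 73 ± 1.68 CPM in control libraries. All changes in this paragraph other than that of SMAD5 had an edgeR adjusted p of at most 0.00118.

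In libraries labelled wild type MYCN against no MYCN, 8 of 66 tested pathway genes were called higher and 21 lower, beside 10.9% and 11.3% of all tested genes, with a median of -0.15, against 0 over all genes. Most of the lower ones were targets: 15 of 21 were called lower and 3 higher. COL1A1 averaged 435 ± 56.8 CPM in libraries labelled wild type MYCN and 1520 ± 79.4 CPM in those labelled no MYCN, a change of -1.81 (SE 0.10, adjusted p = 6.16e-12 in edgeR). COL1A2, which encodes the other chain of type I collagen, changed by -1.68 (SE 0.19), while CYR61, a matricellular protein, rose by 0.66 (SE 0.08). FN1 and SNAI2 are on both the target list and the list of mesenchymal markers. Both were called lower, with changes of -0.62 (SE 0.12) for FN1 and -0.66 (SE 0.17) for SNAI2. The sum of the mesenchymal markers was higher, at 6330 to 6620 CPM in libraries labelled wild type MYCN and 5220 to 5510 CPM in those labelled no MYCN. Such a sum is set mainly by its most abundant genes, and the levels of the other markers are not given here. The part of the cell state was not tested. PMEPA1, a TGF-beta-induced inhibitor of SMAD signalling, averaged 24.5 ± 2.93 CPM in libraries labelled wild type MYCN and 61.3 ± 5.01 CPM in those labelled no MYCN. NEDD4L, a ubiquitin ligase for activated SMADs, averaged 104 ± 6.77 CPM in libraries labelled wild type MYCN and 54.9 ± 4.36 CPM in those labelled no MYCN.

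In libraries labelled MYCN 3A against no MYCN, 2 of 66 pathway genes were called higher and 26 lower, beside 12.7% and 12.8% of all tested genes, with a median of -0.26, against -0.04 over all genes. Of 10 tested genes of latency and activation 7 were called lower, among them THBS1, thrombospondin 1, an activator of latent TGF-beta, by -1.05 (SE 0.12, adjusted p = 4.73e-06 in edgeR). SMAD3 fell to 20.8 ± 1.59 CPM in libraries labelled MYCN 3A, against 35.2 ± 2.36 CPM in those labelled no MYCN (adjusted p = 0.000286 in edgeR).

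Between the forms, 24 of 66 pathway genes were called higher and 11 lower in libraries labelled wild type MYCN, beside 15.8% and 14.5% of all tested genes, with a median of 0.20, against 0 over all genes. SMAD3 averaged 39.1 ± 6.54 CPM in libraries labelled wild type MYCN and 20.8 ± 1.59 CPM in those labelled MYCN 3A, a change of 0.92 (SE 0.13, adjusted p = 2.02e-05 in edgeR). NEDD4L was higher by 1.11 (SE 0.10) and SMURF2, another ubiquitin ligase that acts on TGF-beta receptors and SMADs, by 0.74 (SE 0.11). Targets went both ways, 5 higher and 8 lower: CYR61 changed by 0.92 (SE 0.08) and CTGF by 0.83 (SE 0.09), while COL1A1 changed by -0.92 (SE 0.09).

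**Figure D4:**
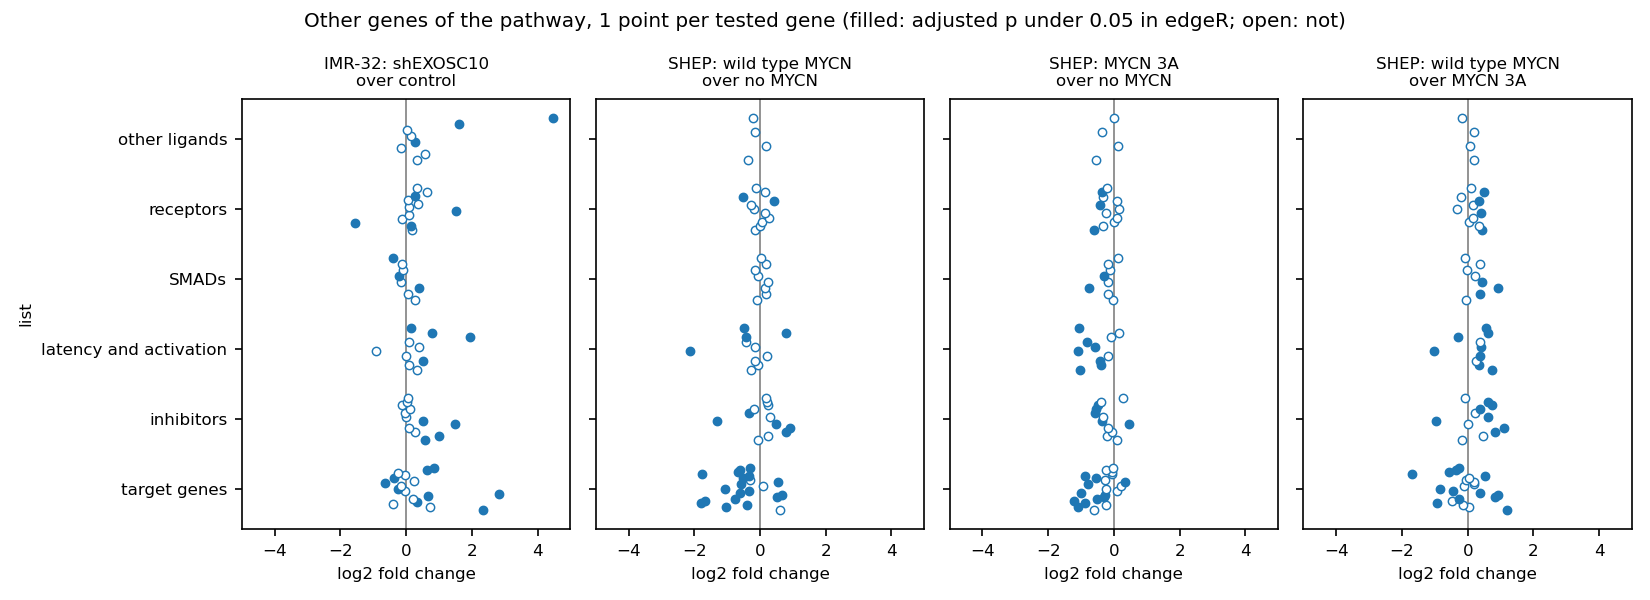
Log2 fold changes of the other pathway genes by role in the 4 comparisons, 1 point per tested gene, filled where edgeR's adjusted p was under 0.05. Filled target genes lie mostly left of 0 in libraries labelled wild type MYCN against no MYCN, 15 lower and 3 higher, and on both sides between the forms, 8 lower and 5 higher.

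Genes whose levels ran most like those of a member were named by the Pearson correlation of log2 CPM, centred within each line. These values describe libraries that share groups and scaling, and carry no p. Over the 6 IMR-32 libraries, INHBE ran closest to DDIT4, an inhibitor of mTORC1, GATA3, an adrenergic transcription factor, and CHRNA1, a nicotinic receptor subunit, each with r of at least 0.999. Over the 9 SHEP libraries, TGFBI ran closest to the matrix protein gene SPARC, with r = 0.993. Over all 15 libraries, INHBA ran closest to TWIST1 (r = 0.983), with r = 0.997 in IMR-32 and 0.680 in SHEP. FST ran closest to MOK (r = 0.944), with r = 0.977 in SHEP and 0.300 in IMR-32, and FSTL3 to ADORA2B, an adenosine receptor (r = 0.967). TGFB2 ran closest to ACADM, a fatty acid oxidation enzyme (r = 0.949), TGFB1 to CRTC2, a CREB coactivator (r = 0.925), and TGFB3 to RBM41 (r = 0.915).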

How the data were processed

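Poly(A) RNA of 15 samples, of 89 in the series, was analysed; the other 74 samples were not used here. Per the submitters' processing notes, the tools include STAR 2.7.10a and featureCounts 2.0.3, with hg19 among the builds. The authors deposited raw counts per gene in 2 tables with the same 57905 genes. The header of the SHEP table gives strand setting 2, a minimum overlap of 10 bases and Ensembl release 87; settings of the IMR-32 table are not given in the sources used here. Even values made up 65.5 to 77.1% of counts from 1 to 10, as when both ends of a pair are counted, so counts cannot be taken as independent molecules.

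Groups follow sample titles. Columns of the IMR-32 table were matched by the solvent or doxycycline in their name and their replicate number, which other samples of the line also carry. Symbols were matched for 51996 of the genes. Genes were filtered with filterByExpr, scaled with TMM and tested with edgeR 4.0.16 (R 4.3.3, limma 3.58.1), using the robust quasi-likelihood F test with Benjamini-Hochberg adjustment over all tested genes at 0.05. Each line had its own fit, with the 3 SHEP groups in a single one, with a biological coefficient of variation of 0.077 (IMR-32) and 0.108 (SHEP). An SE is the fold change divided by the root of F. Log2 CPM for correlations used a prior count of 2 and genes with a mean log2 CPM of at least 3. The fit was also run on simulated counts with known changes and a single spread for all genes of a line. That run checks the code and does not give error rates for these data. Alternatives were DESeq2 1.42.0, library totals, RLE factors, no filter, the replicate number as a block, leaving out each library and, in SHEP, only the 6 libraries compared.

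The members and lists were chosen with earlier results of these data known. Named genes are the members, EXOSC10, MYCN, up to 3 called genes of smallest p per list, stress response genes and the 3 genes most like each member, of which the text gives a selection; FN1 and SNAI2 are named for the lists they share. Of the markers PECAM1 was not matched.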

Additional observations from a re-analysis of the deposited data

How the results depend on the processing

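Of 94 recomputed counts of called genes, over all genes and over the pathway lists, 92 stayed within 1.5 times the reported count. The exceptions were the counts over all genes between libraries labelled MYCN 3A and no MYCN, 3806 as reported, which were 2166 without no MYCN replicate 1 and 2508 without no MYCN replicate 2; they ranged from 2166 to 3616 over the libraries left out. The 5 members chosen for their changes moved by less than the SD between replicates in all 188 recomputed values. Leaving out a library can hardly shift a group mean by more than this SD, so those values are no evidence of stability. Among the other members, 13 of 141 recomputed values lost a call and 2 gained one, and no called value changed direction. Changes near 0 that were not called did change sign: TGFB1 from 0.02 to as low as -0.07 on EXOSC10 depletion and from -0.09 to 0.03 between the forms, and INHBA from 0.03 to as low as -0.05 for wild type MYCN against no MYCN. FST and FSTL3, at 0.05 and 0.06 on EXOSC10 depletion, also came to as low as -0.20 and -0.02. For EXOSC10 and the up to 3 called genes of smallest p per list, 51 of 818 recomputed values lost their call and none changed direction. Stress response genes are included, and not all of these genes are named above. The causes were not tested.

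With library totals the median of all genes lay at -0.14 for MYCN 3A against no MYCN and at -0.07 for wild type MYCN against no MYCN, against -0.04 and 0 with TMM. For MYCN 3A against no MYCN, 36 pathway genes were then called, all lower, against 2 higher and 26 lower with TMM.

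The labels describe no pairing. Libraries of the same replicate number deviated together at r = -0.03 to 0.14, those of different numbers at r = -0.13 to 0.06, and 12 of 15 libraries correlated best with one of their own number. With a replicate block 5251 genes were called for EXOSC10 depletion, 4184 for wild type MYCN, 4794 for MYCN 3A and 5414 between the forms, and 28, 33, 36 and 37 pathway genes.

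Low counts limit INHBB in both lines, INHBE and TGFB3 in SHEP, and INHBA, FST and TGFBI in IMR-32; 3 counts correspond to 0.114 to 0.264 CPM in a library, a floor that covers counting error only.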
